A study of Mus musculus with 23 samples.

Results

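Ihh, Nhej1 and Slc23a3 are 3 neighbouring genes of mouse chromosome 1, chosen here by their place beside each other and followed through every deposited comparison of the study. They are 3 of the 34682 genes listed in the comparison that covers the whole transcriptome, and 3 of the 79 genes listed in at least 1 of the comparisons against wild type. All 3 have a row in all 5 tables. The tissue was the distal part of the mouse forelimb at E11.5, from which polyadenylated RNA was sequenced.

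The study is known for mutants with inversions that bring a limb enhancer cluster of the Epha4 domain into a gene-dense part of the same chromosome, and the comparisons ask which genes there change. Inv1 had 3 libraries, Inv2 had 4, Inv3 had 3 and Inv4 had 3, each set against 5 wild type (WT) libraries. Inv1DelCTCF, which by its name joins the Inv1 inversion with the loss of a CTCF site, had 2 libraries and was set against the 3 Inv1 libraries. A further 3 Inv1 libraries came from cultured embryonic stem cells, which are not analysed here. The labels give all mutants only as mutant, with no zygosity and no number of clones, and name G4 ESC as the cell type of every sample, limb samples included.

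Ihh encodes Indian hedgehog, a secreted ligand that binds Patched receptors and so releases Smoothened and the Gli transcription factors. It is best known from the growth plate, where prehypertrophic chondrocytes secrete it, and from the endoderm of the gut. In the limb bud at this stage the hedgehog ligand known to pattern the digits is Shh. Nhej1 encodes XLF, a factor that helps the ligase complex join broken DNA ends, and its long introns are known to hold enhancers that drive Ihh in developing digits and cartilage. Slc23a3 encodes a membrane protein of the nucleobase and ascorbate transporter family.

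All 3 genes lie on the minus strand of chromosome 1 in the RefSeq annotation of GRCm38.p6, a later build than the mm9 the submitters' processing notes name, in the order Ihh, Nhej1, Slc23a3 from the low to the high coordinates. Ihh spans 6.36 kb, Nhej1 158 kb and Slc23a3 9.68 kb. Between Ihh and Nhej1 there are 15.7 kb, and between Nhej1 and Slc23a3 only 314 bases. The annotated starts used here for Ihh and Nhej1 are 174 kb apart, and those for Nhej1 and Slc23a3 8.66 kb. The latter distance is less than the 9.68 kb span of Slc23a3. The start used for Slc23a3 therefore lies inside the annotated gene and not at its outer end.

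The promoters of the 3 genes, from 250 bases before to 50 bases after the annotated start, are shown because the genes share a strand and a neighbourhood, while Nhej1, the middle gene, was not called in any comparison. The sequences are from RefSeq (GRCm38.p6, minus strand, written 5′ to 3′) at chr1:74951623-74951922 for Ihh, chr1:75125177-75125476 for Nhej1 and chr1:75133841-75134140 for Slc23a3. The Slc23a3 window surrounds a start inside the annotated gene, so the region at the outer end of Slc23a3 was not examined. Capitals mark GGGCGG or its reverse complement, the GC box.
Ihh: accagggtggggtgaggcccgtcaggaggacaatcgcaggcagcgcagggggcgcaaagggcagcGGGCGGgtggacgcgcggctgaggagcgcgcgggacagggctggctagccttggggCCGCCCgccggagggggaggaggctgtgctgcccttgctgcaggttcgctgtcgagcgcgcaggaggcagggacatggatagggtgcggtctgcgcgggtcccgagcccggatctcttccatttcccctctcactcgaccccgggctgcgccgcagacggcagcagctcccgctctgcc
Nhej1: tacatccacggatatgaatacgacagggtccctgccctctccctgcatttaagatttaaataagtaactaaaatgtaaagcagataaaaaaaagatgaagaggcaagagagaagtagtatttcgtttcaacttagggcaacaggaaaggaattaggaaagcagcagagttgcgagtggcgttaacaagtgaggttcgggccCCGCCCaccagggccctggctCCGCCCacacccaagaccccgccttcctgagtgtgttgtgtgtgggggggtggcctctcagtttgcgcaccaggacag
Slc23a3: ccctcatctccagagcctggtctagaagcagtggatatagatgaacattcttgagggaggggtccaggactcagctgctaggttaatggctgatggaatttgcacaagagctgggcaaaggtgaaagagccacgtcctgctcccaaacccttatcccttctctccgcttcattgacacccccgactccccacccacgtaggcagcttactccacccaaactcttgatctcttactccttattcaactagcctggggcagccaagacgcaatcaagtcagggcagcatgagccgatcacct
The Ihh promoter was the richest of these in GC, at 72.7% with 30 CG dinucleotides, and 94.3% of 32851 RefSeq promoters of the same length had a GC content at or below it. The Nhej1 promoter had 50.7% GC and 10 CG dinucleotides, and the Slc23a3 promoter 53.3% GC and 6 CG dinucleotides, against medians of 52.7% and 7 over all promoters. GGGCGG, searched on both strands, was found 2 times in the Ihh promoter, 2 times in the Nhej1 promoter and not in the Slc23a3 window, and 35.7% of all promoters hold it. TATAAA (13.6% of all promoters), CCAAT (37.4%), the Gli motif TGGGNGGTC (0.977%) and the core of a CTCF site (0.648%) matched none of the 3 windows on either strand.

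The values are the authors' comparisons of groups, with no value per library. The spread between libraries is therefore known only through the standard error (SE) of each log2 change, the depth per library is unknown, and a level per group can only be rebuilt from the mean over all libraries of a fit and the log2 changes. Positive log2 changes mean higher in the group named first. A gene was called when its deposited adjusted p was under 0.05. In bulk tissue, fewer cells that express a gene and less RNA per cell cannot be told apart. Of the limb markers, Tbx5 had a mean normalised count of 7273 and Hoxd13 one of 19242 in the authors' deposited table of Inv1DelCTCF and Inv1. Of the pluripotency genes there, Nanog and Pou5f1 had means of 1.55 and 1.96, but Zfp42 and Esrrb had 23.1 and 37.1.

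Ihh was higher than WT in Inv2, Inv3 and Inv4 and was not called in Inv1. Its mean normalised count over the 18 libraries of the joint fit was 59.6. The rebuilt level was 30.2 normalised counts in Inv1, 71.3 in Inv2, 93.9 in Inv3 and 92.1 in Inv4, against 27.6 in WT. The low levels among these are uncertain, since the separate fit gives Ihh 10.4 normalised counts in Inv1. In the joint fit the levels of Inv1 and WT lay next to each other at the low end, and those of Inv3 and Inv4 next to each other at the high end.

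For Inv2 the authors' deposited table gives Ihh a log2 change of 1.37 (SE 0.266, 95% interval 0.85 to 1.89, adjusted p = 1.85e-04). For Inv3 the authors' deposited table has 1.77 (SE 0.267, interval 1.24 to 2.29, adjusted p = 6.46e-09). For Inv4 the authors' deposited table has 1.74 (SE 0.267, interval 1.21 to 2.26, adjusted p = 4.77e-08). By log2 change Ihh ranked first of the 74 genes listed for Inv2, second of the 79 for Inv3 and second of the 72 for Inv4.

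For Inv1 the authors' deposited table gives Ihh 0.13 (SE 0.267, adjusted p = 0.978), and the interval of -0.39 to 0.65 holds both a fall and a rise of up to 1.57-fold. It ranked number 32 of 78 genes there. The deposited changes of the other inversions lie outside that interval. Its SE was close to 0.268, the largest of any gene listed for Inv1, and the separate fit gives Ihh an SE of 0.671. The interval may therefore be too narrow.

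**Figure D1:**
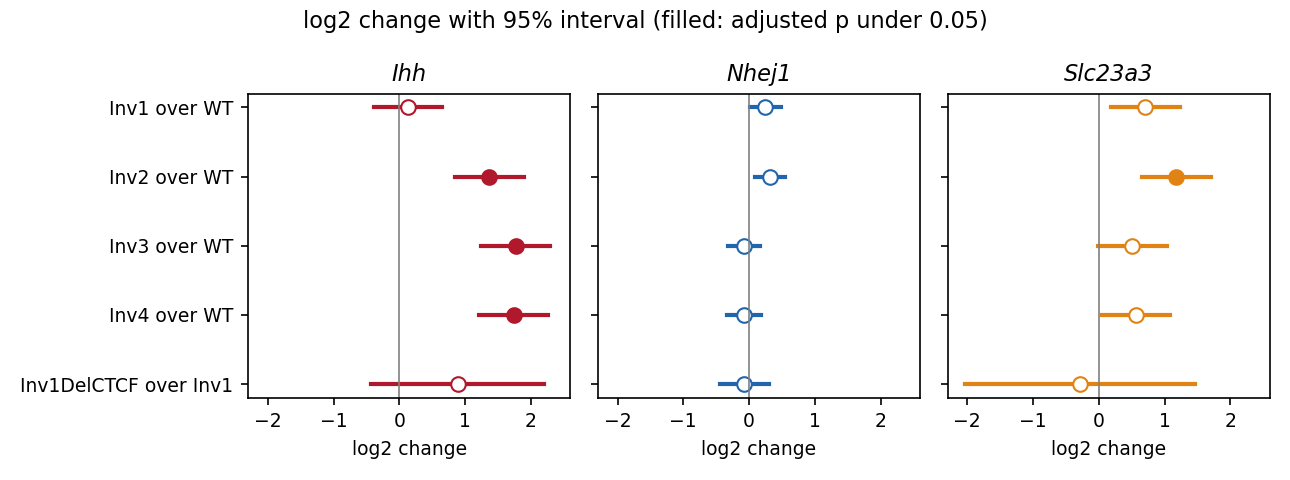
log2 change (horizontal axis) of Ihh, Nhej1 and Slc23a3 in each of the 5 comparisons (rows), with 95% intervals from the deposited SE; filled points have an adjusted p under 0.05. Ihh lies at 1.37, 1.77 and 1.74 in Inv2, Inv3 and Inv4 and at 0.13 in Inv1, and every Nhej1 point lies between -0.08 and 0.32.

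Slc23a3 was a gene of low abundance, with a mean of only 9.40 normalised counts in the joint fit. Its rebuilt level was 9.94 normalised counts in Inv1, 13.9 in Inv2, 8.71 in Inv3 and 9.08 in Inv4, against 6.10 in WT. All 4 inversions stood above WT in this description, and Inv2 was the highest. In Inv2 it rose, and the authors' deposited table puts it next in rank to Ihh, with a log2 change of 1.18 (SE 0.269, interval 0.66 to 1.71, adjusted p = 0.00344).

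In the other inversions Slc23a3 did not pass the test. For Inv1 the authors' deposited table has a log2 change of 0.70 (SE 0.268, interval 0.18 to 1.23, adjusted p = 0.483). For Inv3 the authors' deposited table has 0.51 (SE 0.267, interval -0.01 to 1.04, adjusted p = 0.143), and for Inv4 it has 0.57 (SE 0.265, interval 0.05 to 1.09, adjusted p = 0.101). The unadjusted p-values of Slc23a3 in the authors' deposited table were 0.00857 in Inv1, 0.0542 in Inv3 and 0.0305 in Inv4. The 4 comparisons share the WT libraries, so that 4 positive values are not 4 independent observations.

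Nhej1, which lies between these genes, was not called in any comparison. Its mean was 189 normalised counts in the joint fit, and its rebuilt level was 210 in Inv1, 220 in Inv2, 168 in Inv3 and 167 in Inv4, against 177 in WT. By the authors' deposited table the log2 change was 0.25 in Inv1 (SE 0.124, adjusted p = 0.725) and 0.32 in Inv2 (SE 0.117, adjusted p = 0.132). By the authors' deposited table it was -0.07 in Inv3 (SE 0.127, adjusted p = 0.722) and -0.08 in Inv4 (SE 0.131, adjusted p = 0.705). The unadjusted p-values for Inv1 and Inv2 in the authors' deposited table were 0.0441 and 0.00689, so the small positive values there failed only the adjustment. The upper ends of the intervals were 0.49 in Inv1, 0.54 in Inv2, 0.17 in Inv3 and 0.18 in Inv4, which is at most 1.46-fold. In Inv2 the interval of Nhej1 ended below the start of those of Ihh (0.85) and Slc23a3 (0.66), and in Inv3 and Inv4 it ended below the start of that of Ihh (1.24 and 1.21).

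**Figure D2:**
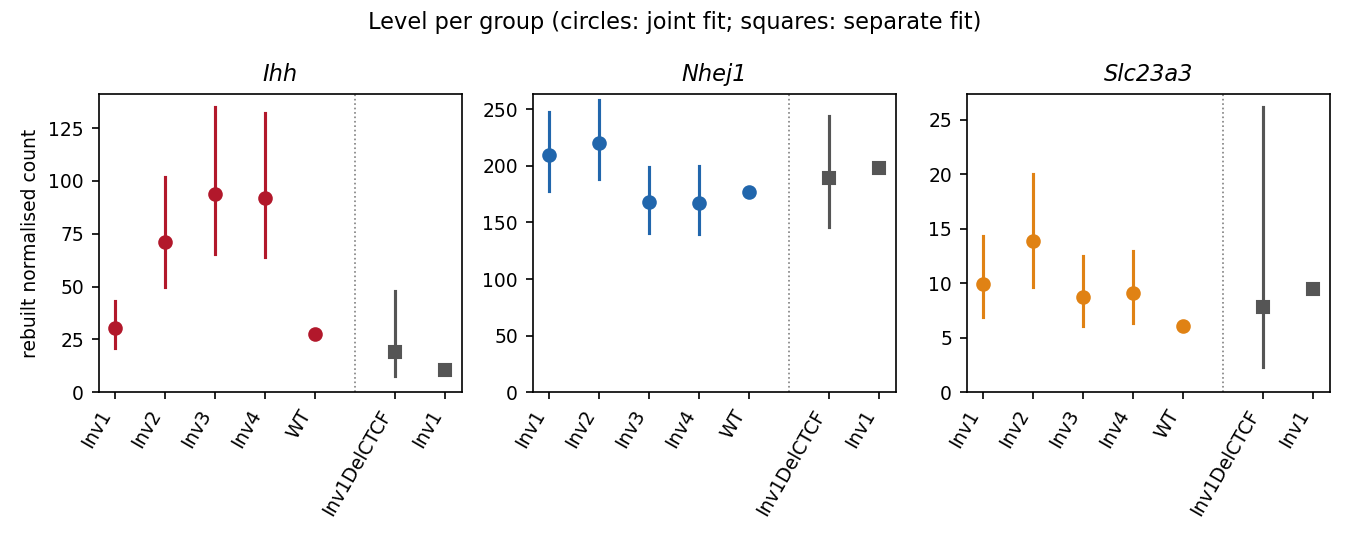
Level of each gene in each group in normalised counts (vertical axis, from 0), rebuilt from the joint fit (circles) and from the fit of Inv1DelCTCF and Inv1 (squares); bars are the 95% interval of the log2 change applied to the WT level or, for Inv1DelCTCF, to the Inv1 level. Ihh reaches 93.9 in Inv3 and 92.1 in Inv4 against 27.6 in WT, and the Inv1 level of Ihh is 30.2 in one fit and 10.4 in the other.

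These calls stand on different backgrounds. None of the 3 genes was called in Inv1, where 8.97% of the listed genes were called and 7.69% were called higher. In Inv2 2 of the 3 were called higher, against 4.05% of the listed genes called and 2.70% called higher. In Inv3 1 of the 3 was called higher, against 32.9% called and 16.5% called higher, and in Inv4 1 of the 3, against 20.8% called and 13.9% called higher. The listed genes are a locus and not the genome. From the ratio of p to adjusted p, the authors' calls made up a share of their tested genes that lay between 0.133% and 0.295% in Inv1, between 0.313% and 5.22% in Inv2, between 27.6% and 31.1% in Inv3 and between 19.8% and 23.4% in Inv4, so a call in Inv3 or Inv4 was far more common genome-wide than one in Inv1 or Inv2. By p-value Ihh ranked number 1 of the genes listed for Inv2 and number 3 for Inv3 and for Inv4.

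Along the reference chromosome the changes did not follow the gene order. The breakpoints of the inversions are not given here, so neighbours in the reference may not be neighbours in a mutant. On the side of Ihh away from Nhej1, Fev, an ETS transcription factor gene, had in the authors' deposited table a log2 change of 6.76 (SE 0.237) in Inv3 but 0.55 (SE 0.266, adjusted p = 0.298) in Inv2 and 0.59 (SE 0.267, adjusted p = 0.0935) in Inv4. Ihh was therefore called in Inv2 and Inv4 where Fev, the nearest listed gene on that side in the reference, was not. Fev and Ihh were both called in Inv3. Cdk5r2, an activator of Cdk5, was called in Inv3 alone of the 4 inversions (log2 change 1.43), and Wnt10a, a Wnt ligand gene, in none, in the authors' deposited table. On the side of Slc23a3, Fam134a, an endoplasmic reticulum protein gene, was called higher in Inv1 (log2 change 0.31), the inversion in which none of the 3 genes was called, in the authors' deposited table. Zfand2b was called in none of the 4, and Abcb6, a mitochondrial transporter gene, was called lower in Inv3 (-0.24) and Inv4 (-0.30) in the authors' deposited table. Cnppd1 and Cryba2, annotated between these genes, are listed at 0 in the table of Inv1DelCTCF and Inv1, as are 12741 of its 34682 genes. Whether a 0 there means no expression or that the gene was not counted was not tested.

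**Figure D3:**
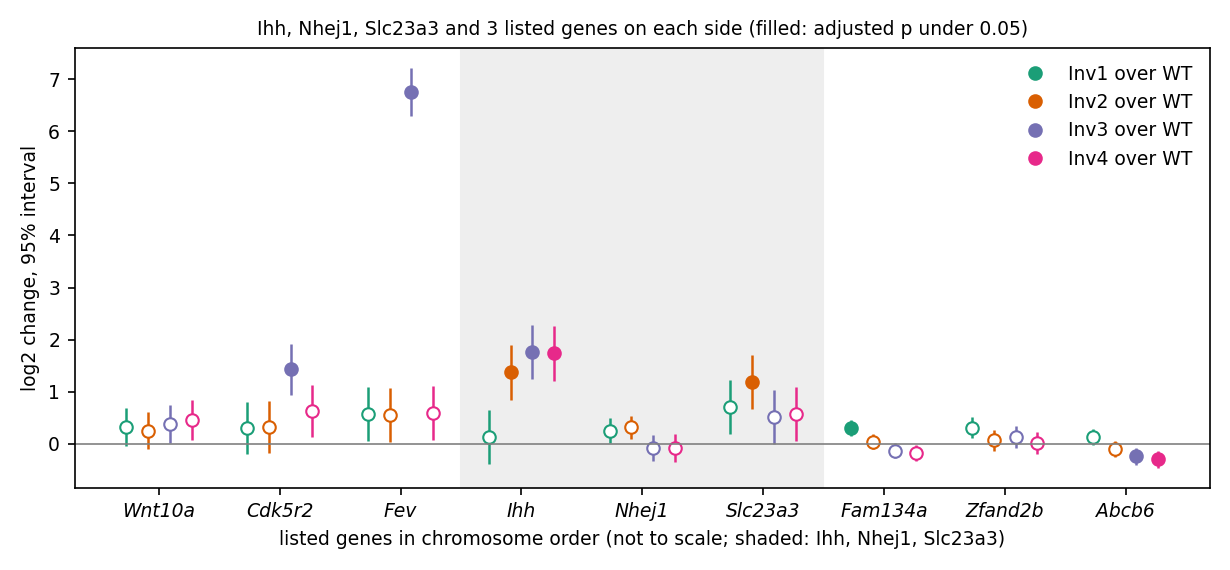
log2 change over WT (vertical axis, with 95% intervals) of Ihh, Nhej1 and Slc23a3 (shaded) and of 3 listed genes on each side, in the order of the reference chromosome and not to scale, with 1 colour per inversion; filled points have an adjusted p under 0.05. Fev in Inv3 stands at 6.76, Ihh at 1.37 to 1.77 in Inv2, Inv3 and Inv4, and Nhej1 between -0.08 and 0.32.

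The inversions were set against each other in 6 pairs for each of the 3 genes, which gives 18 tests, each adjusted over all genes listed in both tables of the pair. The test divides the difference of the authors' log2 changes by the root of the summed squared SE and takes a normal p. The SE of Ihh was 0.671 in the separate fit, so the summed SE used here for Ihh may be too small. Ihh was higher in Inv2 than in Inv1 by 1.24 (SE 0.377, adjusted p = 0.0124), where 8.11% of the genes differed. It was higher in Inv3 than in Inv1 by 1.64 (SE 0.378, adjusted p = 1.67e-04), where 23.1% of the genes differed, and higher in Inv4 than in Inv1 by 1.61 (SE 0.378, adjusted p = 1.91e-04), where 13.9% did. Under Bonferroni adjustment the difference of Inv2 and Inv1 did not pass (adjusted p = 0.0744).

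Among Inv2, Inv3 and Inv4 no difference in Ihh passed. Inv3 minus Inv2 was 0.40, with a 95% interval of -0.34 to 1.14 and 4.05% of all genes called. Inv4 minus Inv2 was 0.37 (interval -0.37 to 1.11) and Inv4 minus Inv3 was -0.03 (interval -0.77 to 0.71), with 4.17% of all genes called in each of these pairs. These intervals do not show that the 3 inversions act alike on Ihh.

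For Slc23a3 none of the 6 differences passed. The widest was Inv3 minus Inv2 at -0.67 (SE 0.379, interval -1.41 to 0.07, adjusted p = 0.424), so that its rise in Inv2 was not shown to exceed the values of the other inversions. For Nhej1 none passed in this form of the test either, but with an equal WT share of the variance removed Inv3 minus Inv2 did (adjusted p = 0.0307). Its lowest unadjusted p values were 0.0237 for Inv3 minus Inv2 (-0.39, interval -0.73 to -0.05, adjusted p = 0.219) and 0.0247 for Inv4 minus Inv2 (-0.40, interval -0.74 to -0.05, adjusted p = 0.444).

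In Inv1DelCTCF against Inv1 none of the 3 genes was called, where 11.7% of 11218 genes with an adjusted p were called and 3.81% were called higher. Ihh had a rebuilt level of 19.3 normalised counts in Inv1DelCTCF and 10.4 in Inv1, for which the authors' deposited table has a log2 change of 0.89 (SE 0.671, interval -0.43 to 2.20, unadjusted p = 0.187). Slc23a3 had 7.80 in Inv1DelCTCF and 9.49 in Inv1, and the authors' deposited table has a log2 change of -0.28 (SE 0.891, interval -2.03 to 1.46, unadjusted p = 0.750). Their means of 14.0 and 8.82 were under 113, the lowest mean with an adjusted p in that table, and neither has an adjusted p. Nhej1 had 189 in Inv1DelCTCF and 198 in Inv1, and by the authors' deposited table its log2 change was -0.07 (SE 0.189, interval -0.44 to 0.30, adjusted p = 0.863). At this depth a change of Ihh up to 4.60-fold was within the interval, while for Nhej1 the upper end was 1.23-fold. Of the 5 markers of endoderm, a known source of Ihh, Foxa2, Cdx2 and Foxa1 were near the floor, with means of 0.526, 1.18 and 3.78. Sox17 had a mean of 107 and Shh one of 95.4. The summed level of the 5 markers was 158 in Inv1DelCTCF and 241 in Inv1. Shh, also the known ligand of the limb bud, had 34.3 of this in Inv1DelCTCF and 136 in Inv1. The other 4 markers, which were mostly Sox17, summed to 124 in Inv1DelCTCF and 105 in Inv1. With Foxa2, Cdx2 and Foxa1 near the floor, these sums do not show that endoderm was present. The part of the endoderm markers in the Ihh values was not tested.

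The level of Ihh differed between the fits more than that of nearly any other listed gene. The labels tie the same 3 Inv1 libraries to both, and for 49 genes with a mean of at least 300 the Inv1 levels of the fits lay within 0.0124 of each other on the log2 scale in the median, after the ratio of scales was taken off. For Ihh the Inv1 level was 10.4 normalised counts in the separate fit, against 30.2 rebuilt from the joint fit, a difference of -1.40 on the log2 scale with the scale ratio removed. This was the second lowest of 72 genes, after Fev at -1.68, and Prkag3 followed at -1.04. For Slc23a3 the difference was 0.07 and for Nhej1 0.05. If positive meant higher in Inv1DelCTCF as deposited, the Ihh difference would be -0.68 and its Inv1 level 17.1. Ihh taken alone would thus be closer to that reading of the sign, although the listed genes together are not.

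**Figure D4:**
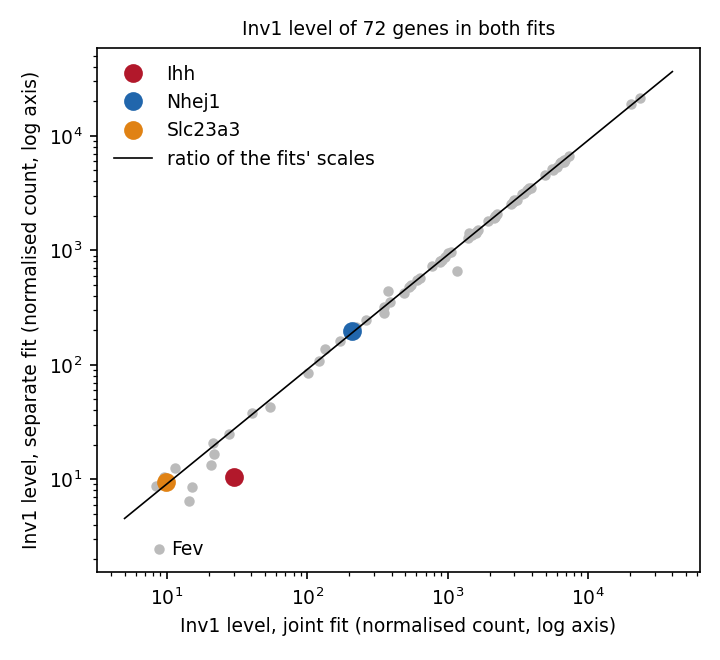
Level in Inv1 in normalised counts of 72 genes, from the joint fit (horizontal, log axis) and from the fit of Inv1DelCTCF and Inv1 (vertical, log axis); the line is the ratio of the scales of the fits. Nhej1 and Slc23a3 lie on the line, while Ihh lies below it at 10.4 against 30.2, as does Fev.

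The sums behind these means give the size of the Ihh rise in another way. A mean of 59.6 over 18 libraries fixes the summed counts. With the Inv1 level of the separate fit put on the scale of the joint fit, and the authors' log2 change of Inv1 over WT, the 10 libraries of Inv2, Inv3 and Inv4 would average 98.5 normalised counts against 10.5 in WT, which is 9.41-fold. With that log2 change at the ends of its interval the fold would be 6.39 and 13.7. Under the reversed sign it would be 5.41, and 3.61 and 8 at the ends of the interval. The authors' deposited table corresponds to folds of 2.59 for Inv2, 3.40 for Inv3 and 3.34 for Inv4. These are sums of deposited means with no test, and 1 library with a very high count would move them in the same way, which cannot be seen without values per library.

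The SE of Ihh was also close to the highest in the tables. It was 0.266 to 0.267 in the 4 comparisons, where no gene exceeded 0.269, and between 7 and 10 genes of each table had an SE of at least 0.26. Those genes had means from 4.36 to 406 normalised counts, Slc23a3 among them, so the SE did not grow further in the genes of lowest count. In the separate fit the SE of Ihh was 0.671 and that of Slc23a3 0.891, and the largest SE of any gene was 4.56. An upper limit of this kind is what a fit gives when fold changes are shrunk toward 0, and the headers do not say whether this was done. The rebuilt levels and the folds take the log2 changes as deposited. Shrunken changes would place the rebuilt levels of the joint fit too close together. Whether shrinkage accounts for the differing Inv1 levels of Ihh was not tested.

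**Figure D5:**
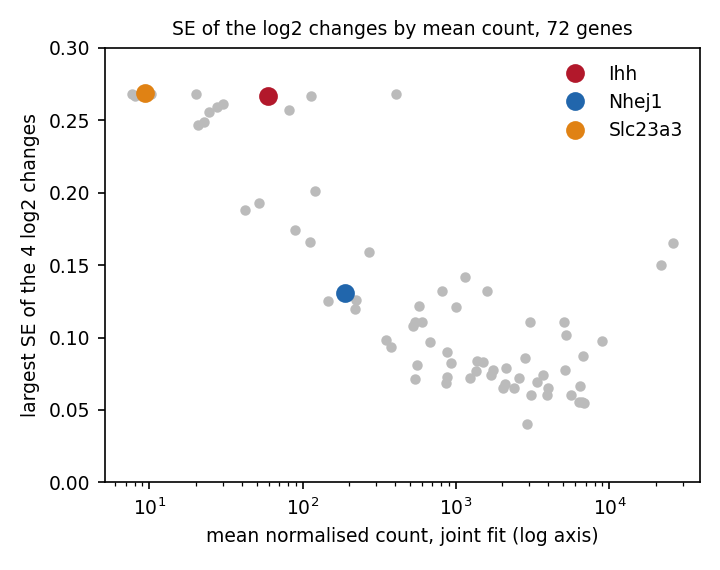
Largest SE of the 4 log2 changes over WT (vertical axis) by mean normalised count (horizontal, log axis) for 72 genes. Slc23a3 and Ihh lie on a flat upper edge near 0.27 together with genes of other means, while Nhej1 lies at 0.131.

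Levels of different genes can be set beside each other only per length. The mean of Ihh in the separate fit of Inv1DelCTCF and Inv1 was 5.66 normalised counts per kb of the longest transcript, against 33.5 for Shh and 1.19 for Dhh, the other hedgehog ligands, and 185 for Nhej1. In the joint fit the rebuilt level of Ihh per kb reached 28.9 in Inv2, 38.1 in Inv3, and 37.3 in Inv4, against 11.2 in WT. The WT value is uncertain, since the sums of means above gave 10.5 normalised counts in WT in place of 27.6. Shh and Dhh have no value in the joint fit, so these levels cannot be set beside theirs. Slc23a3 had 6.73 per kb in Inv2, against 2.96 in WT.

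The genes whose pattern over the 4 inversions was most like that of Ihh were Abca12, Kcne4 and Prkag3. Likeness was the root mean square difference of the log2 changes, over 72 genes, and was 0.535 for Abca12, 0.617 for Kcne4 and 0.776 for Prkag3, against a median of 1.41. Abca12, a lipid transporter gene, had log2 changes of 0.37, 0.65, 1.32 and 1.13 in Inv1 to Inv4 in the authors' deposited table, each below that of Ihh except in Inv1. For Slc23a3 the nearest were Des (0.449), Vil1 (0.499) and Wnt10a (0.510), against a median of 0.799, and for Nhej1 they were Bard1 (0.129), Utp14b (0.131) and Fam134a (0.152), against a median of 0.257.

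Other genes of the pathways of the members could be counted only in Inv1DelCTCF against Inv1. Of 22 hedgehog pathway genes, 17 had an adjusted p, 3 were called lower in Inv1DelCTCF and 0 higher, with a median log2 change of -0.04, against -0.014 and 11.7% called in either direction over all genes tested. Of all 11218 genes tested, 885 were called lower and 427 higher, so calls leaned to lower values in general. Among those called in the authors' deposited table were the receptor Ptch1 (-0.33, adjusted p = 0.0111), also known as a target of the pathway, and the transducer Smo (-0.21, adjusted p = 0.0155). Shh had a rebuilt level of 34.3 in Inv1DelCTCF and 136 in Inv1, and the authors' deposited table has log2 changes of -1.99 (SE 0.738, unadjusted p = 0.00712, no adjusted p) for Shh and 0.09 (SE 1.18) for Dhh. Beside these values, 4 of 9 ectoderm and apical ridge markers were also called lower in Inv1DelCTCF, with summed levels of 10055 in Inv1DelCTCF and 12288 in Inv1 and none at 0, and their part in the hedgehog values was not tested.

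Of 15 end joining genes, 13 had an adjusted p, and 1 was called lower in Inv1DelCTCF and 0 higher, with a median log2 change of 0.03. Over all genes tested 11.7% were called in either direction, so 1 call in this list is near the background. That gene was Poll, which encodes a gap-filling polymerase, at -0.29 (adjusted p = 0.0294) by the authors' deposited table. In the Slc23 family, the vitamin C transporter genes Slc23a1 and Slc23a2 had, in the authors' deposited table, means of 46.2 and 73.8 normalised counts and log2 changes of 0.36 (SE 0.406) and 0.20 (SE 0.288), with no adjusted p. Of 18 genes of the growth plate programme in which Ihh acts, 10 had an adjusted p, and 1 was called lower in Inv1DelCTCF and 0 higher, with a median log2 change of 0.18. This too is near the 11.7% called over all genes tested. The called gene was Bmp7, a bone morphogenetic protein gene, at -0.27 (adjusted p = 0.0367) by the authors' deposited table. Pthlh, whose product is known to act in a feedback loop with Ihh, had a rebuilt level of 93.7 in Inv1DelCTCF and 52.9 in Inv1, for which the authors' deposited table has a log2 change of 0.82 (SE 0.307, unadjusted p = 0.00718) and no adjusted p.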

How the data were processed

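RNA from distal forelimbs at E11.5 was sequenced in the groups given above. STAR, DESeq2 and the build mm9 are named, without versions, in the submitters' processing notes. Per the file headers, each of the 5 tables deposited by the authors gives a mean normalised count (a signal over all libraries of the fit), a log2 fold change and its SE on the log2 scale, a Wald score, a p-value and a Benjamini-Hochberg adjusted p-value. Tests were the authors' DESeq2 Wald tests. The means of a gene are identical in the 4 tables against WT, so these are 1 joint fit of 18 libraries, and Inv1DelCTCF against Inv1 is a separate fit of 5. Nothing in the labels says that libraries came from different litters, so the spread behind the p-values may be technical.

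The numerator is not named. Over 49 genes with a mean of at least 300, the Inv1 levels of the fits differed least (median absolute residual 0.0124 on the log2 scale, against 0.107, 0.117 and 0.132) when positive meant higher in the inversion against WT and, in the other table, higher in Inv1; its sign was turned. WT levels were rebuilt from the joint mean and the 4 log2 changes. Intervals are 95% normal intervals from the SE. Shared WT libraries by themselves make the test between inversions conservative. The deposited SE of Ihh may be too small, so the test need not be conservative for Ihh. Lengths came from GENCODE M21 transcripts, and gene order from RefSeq, where all 79 listed genes matched. The pair test and the direction check were tested on simulated data. For the pair test, the simulated log2 changes were drawn independently with the deposited SE. That setting leaves out the shared WT libraries and an SE that is too small.

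Named genes were the 3 members, 3 listed neighbours on each side, the 3 nearest in pattern, and up to 4 genes of each list by p-value, with the hedgehog ligands. The values of 1 listed hedgehog pathway gene are not reported here. Members and lists were chosen with earlier results of these data known. Alternatives were other thresholds (0.01 and 0.1), adjustment over the rows of a table, a minimum log2 change of 0.5, a minimum mean of 10, other forms of the pair test and other minimum means for the direction. Tables were handled with pandas 2.3.3 under Python 3.11.15, statistics were computed with SciPy 1.17.1 and numpy 2.4.6, and plots were drawn with matplotlib 3.10.9.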

Additional observations from a re-analysis of the deposited data

Results flagged for a closer look

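Inversions differed from each other in the change of Ihh over WT by a test of the difference itself. The difference was 1.24 for Inv2 minus Inv1, 1.64 for Inv3 minus Inv1 and 1.61 for Inv4 minus Inv1 on the log2 scale, with adjusted p values of 0.0124, 1.67e-04 and 1.91e-04. The pairs share the Inv1 and WT libraries and are not independent of each other. The SE of Ihh in the joint fit may be too small, so these adjusted p values may be too low. With an equal WT share of the variance removed, Nhej1 in Inv3 minus Inv2 also passed (adjusted p = 0.0307).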

How the results depend on the processing

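In the 5 comparisons, the number of the 3 genes called was within 1.5 times the reported one under every alternative run but 1. With a mean of at least 10, Slc23a3 leaves the genes tested and 1 of the 3 was called in Inv2 in place of 2. Between inversions, Ihh in Inv2 minus Inv1 had an adjusted p of 0.0744 under Bonferroni adjustment, so that 0 of 3 genes passed there. With an equal WT share of the variance removed, Nhej1 in Inv3 minus Inv2 passed (adjusted p = 0.0307), which makes 1 of 3, and the cause was not tested. The direction had the smallest residual under the same signs with a mean of at least 100 (0.0165) and of at least 20 (0.0199). With log2 changes at the lower and upper ends of their intervals, the rebuilt WT level was 37.5 and 20 for Ihh, 199 and 156 for Nhej1 and 8.13 and 4.49 for Slc23a3. At an adjusted p under 0.1, 5 hedgehog pathway genes were called in place of 3. Chosen after seeing the data, the reversed sign of the Inv1DelCTCF table gave an Ihh level of 17.1 in Inv1 and an average of 93.0 in Inv2, Inv3 and Inv4. No library could be left out because the tables hold no value per library. No paired analysis was possible because the columns carry no replicate. Low counts limit Slc23a3 throughout and Ihh in Inv1DelCTCF against Inv1.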
